A study of Mus musculus with 4 samples.

Results

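Cochlear hair cells (HCs) were compared with the other epithelial cells of the cochlea, gene by gene, in RNA sequenced from sorted cells of newborn mice. HCs detect sound-driven motion in the inner ear. The comparison used 2 of the 4 libraries of the series, and its members were the genes whose signal reached 200 in the higher of these libraries, 5947 of the 12814 genes in the table. Both populations came from *Atoh1/nGFP* mice on a C57BL/6 background, in which a nuclear green fluorescent protein is driven by sequence of *Atoh1*, a transcription factor of early HCs. No treatment separated them. HCs were sorted as cells with both the fluorescent protein and the epithelial surface protein CD326. Cells with CD326 alone were the epithelial non-sensory cells (ENSCs), a gate that does not separate supporting cells from the other epithelium of the cochlear duct.

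Each population had 1 library, without a replicate, so the spread between replicates is unknown and no test was possible. The signal is a read count per gene after quantile normalization with a floor of 20, and it is not divided by gene length. The sequencing depth is unknown. The lowest signals of a library formed a tied range, up to 24.25 in HCs and 22.75 in ENSCs, in which genes could not be ranked. A fold against a signal in that range was computed against its top and is given as "at least". In sorted bulk cells, a lower signal from fewer cells of a type cannot be told apart from less RNA per cell.

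The newborn cochlear epithelium holds a narrow sensory strip, the organ of Corti, in which inner and outer HCs alternate with pillar, Deiters and other supporting cells. Toward the inner side lies the greater epithelial ridge with the interdental cells, which secrete much of the tectorial membrane, the gel that will cover the hair bundles. HCs turn deflection of a bundle of actin-filled stereocilia into current through a channel at the tip links, and release glutamate at ribbon synapses. Supporting cells and HCs arise from shared progenitors, and Notch signalling between neighbours keeps their fates apart.

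The labels were first checked against marker genes. All 22 HC markers in the table were at least 3-fold higher in the HC library, and their summed signal was 51059.8 in HCs against 3605 in ENSCs. *Epcam*, which encodes CD326, was present in both libraries, at 1017 in HCs and 3376 in ENSCs. Of the 14 pillar and Deiters cell markers in the table, 0 were at least 3-fold higher in HCs and 2 at least 3-fold lower, and the summed signals were 4887 and 5099. Summed over this list, the HC library thus carried about as much signal of pillar and Deiters cell genes as the ENSC library did. *Prox1*, a transcription factor of these cells, had 1147 in HCs and 1408 in ENSCs. *Lgr5*, a Wnt co-receptor of supporting cells, had 898 and 749. The longer list of supporting cell markers described below was not equal in sum, at 54479 in HCs and 145094 in ENSCs. Within it *Epyc* alone had 764 and 62029.

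Markers of cell types outside the epithelium were mixed. Endothelium and pericyte markers summed to 127 in HCs and 278 in ENSCs over 6 genes, and macrophage and leukocyte markers to 216 and 86 over 4 genes, of which *Cd68* was at the floor in both. No red blood cell marker was in the table. Of 18 mesenchyme and fibroblast markers, 8 were at least 3-fold lower in HCs and 1, *Pdgfra*, higher, with summed signals of 2462 in HCs and 26528 in ENSCs. The mesenchymal regulators *Tbx18*, *Zeb2* and *Prrx1* were at the floor in both libraries, whereas *Lum*, *Ogn* and *Dcn*, which the ridge list below also holds, carried most of that sum. The marker genes *Col1a2* and *Postn* were also far higher in ENSCs, at 1618 and 962 against 46.2 and 24.2 in HCs. Of 11 glia markers, 7 were at least 3-fold lower in HCs and 0 higher, with summed signals of 3284 and 4463. Of 15 spiral ganglion neuron markers, 4 were at least 3-fold higher in HCs and 3 lower, with sums of 12757 and 7410. The higher ones were *Nefl*, *Nefm*, *Snap25* and *Calb2*, and *Ntrk3* and *Nsg2* were in the tied range in HCs. The melanocyte list had 5 genes, 2 of them higher and 2 lower, with sums of 2444 and 1476. The part of such cells in the results below was not tested.

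Over the 5947 genes with at least 200 in the higher library, 648 (10.9%) were at least 3-fold higher in HCs and 699 (11.8%) at least 3-fold lower. The median log2 ratio of HC to ENSC signal was 0.02. A further 3667 genes (61.7%) were less than 2-fold apart. Over all 12814 genes the shares were 8.39% and 9.2%. The share of genes apart by 3-fold was highest at the highest levels. Between 200 and 500 it was 10.9% higher and 11.4% lower, and at 5000 or more 14.3% and 16.2%. At least 10-fold apart were 250 genes of the HC side and 177 of the ENSC side. For 119 genes higher in HCs and 67 lower the smaller signal was in a tied range, so their folds are lower bounds. At the threshold of 200, *Uvrag* (200 in HCs and 194.5 in ENSCs) was just inside and *Bag3* (55.5 and 199.75) just outside.

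**Figure D1:**
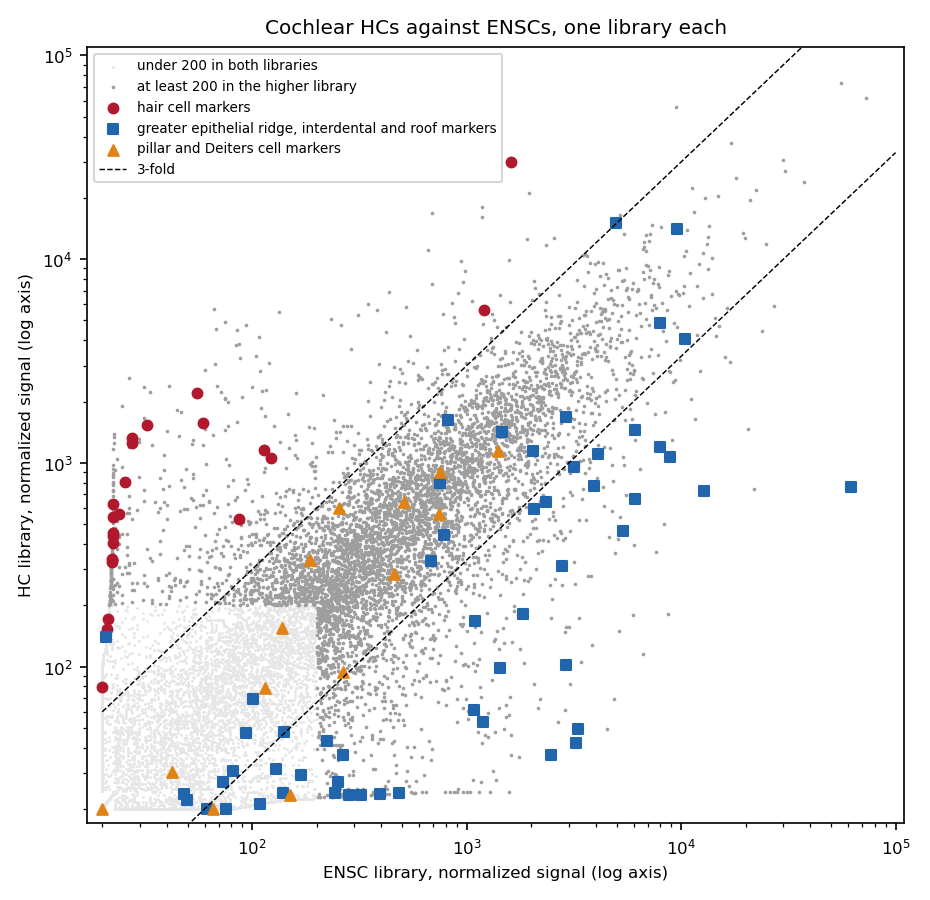
Signal of each gene in the HC library (vertical) against the ENSC library (horizontal), normalized signal on log axes with a floor of 20. Each point is a gene, and dashed lines mark 3-fold. All 22 HC markers (circles) lie above the upper line, most ridge, interdental and roof markers (squares) below the lower line, and most pillar and Deiters cell markers (triangles) between the lines.

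In the lists by function, counts are given over every member in the table and, where stated, also over members with at least 200 in the higher library. The first are read against 8.39% higher and 9.2% lower over all genes, and the second against 10.9% and 11.8%. A member can reach 200 through the library in which it is high, so the second counts describe the members and nothing more. The lists are compared in the plot of log2 ratios by list.

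**Figure D2:**
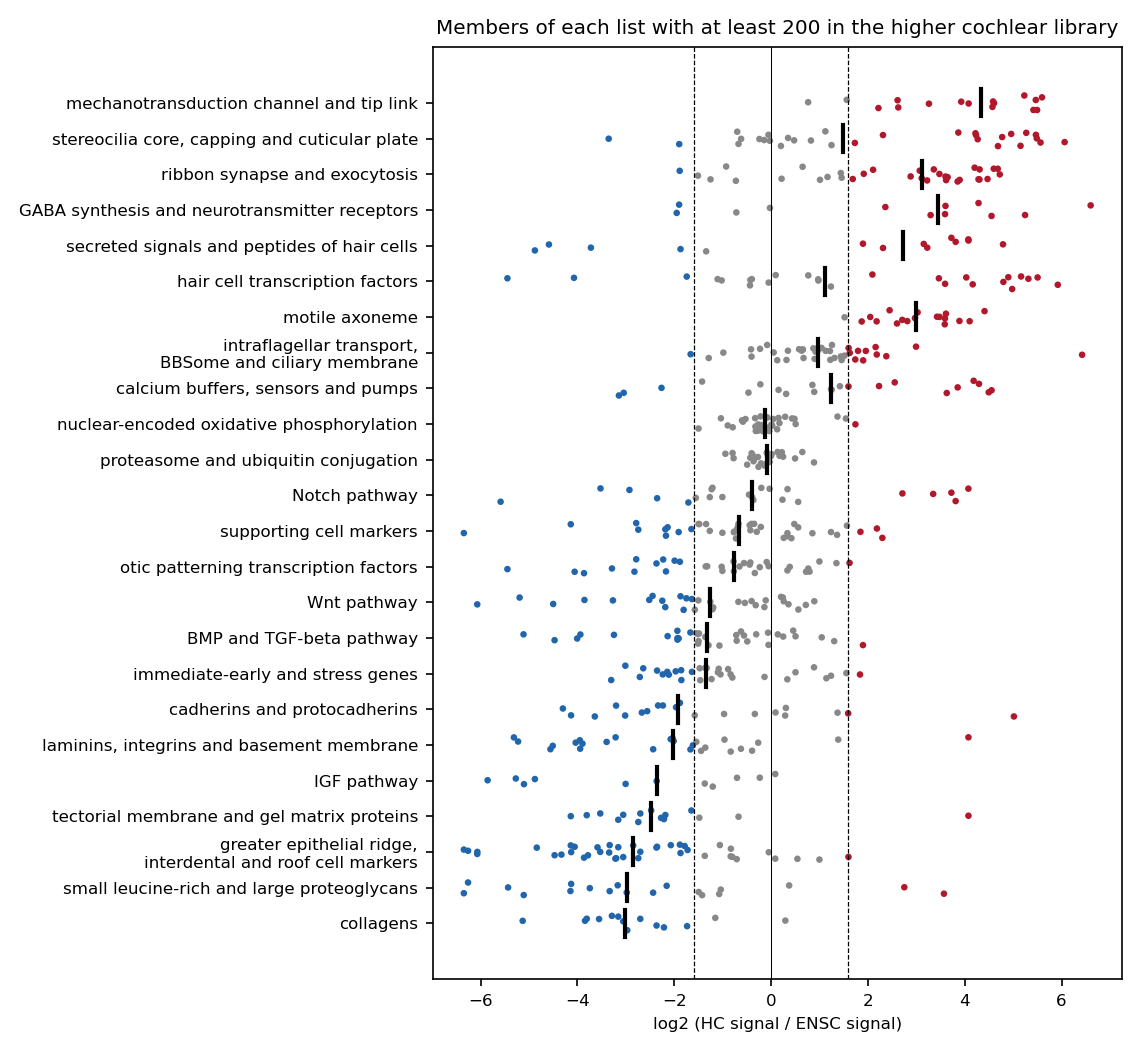
log2 ratio of HC to ENSC signal for members of 24 lists with at least 200 in the higher library. Each point is a gene (red, at least 3-fold higher in HCs; blue, at least 3-fold lower; grey, between), black bars are list medians, and dashed lines mark 3-fold. Medians run from 4.33 for the transduction genes to -3.01 for the collagens, with the proteasome genes at -0.09.

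The genes of mechanotransduction were far higher in HCs. Of 21 in the table, 16 were at least 3-fold higher and 0 lower, and of 16 with at least 200 the counts were 14 and 0. The median log2 ratio was 3.26 over all members in the table. The channel subunits are encoded by *Tmc1* and *Tmc2*. *Tmc1* had a signal of 339 in HCs and 22.2 in ENSCs, at least 14.9-fold higher. *Tmc2*, the subunit that comes first in development, had 377 and 22.2. Their partners *Lhfpl5* (540 in HCs, at least 23.7-fold) and *Tmie* (357 in HCs, 9.58-fold) were also low or in the tied range in ENSCs. *Cib2*, a calcium-binding partner of the channel, was 23.8-fold higher.

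The tip link itself is made of cadherin 23 and protocadherin 15. *Pcdh15* had the smaller fold of this pair with 5618 in HCs and 1208 in ENSCs (4.65-fold), and *Cdh23* had 531 and 86.8 (6.12-fold). ENSCs therefore held a signal of *Pcdh15* well above the tied range. *Gpr98* (*Adgrv1*), a large adhesion receptor of the ankle links that join the bases of young stereocilia, had 3285 in HCs and 87.5 in ENSCs. *Clrn1*, an Usher syndrome gene, had 1317 and 29.8, 44.3-fold apart. *Loxhd1*, whose protein coats the stereocilia membrane, was 42.8-fold higher. *Ptprq*, a phosphatase of the bundle base, had 16851 in HCs and 692 in ENSCs. The 2 members with at least 200 that stayed below 3-fold were *Ush1c* (harmonin, 240 and 81.2) and *Vezt* (855 and 503).

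Genes of the stereocilia core and the cuticular plate, the actin mesh in which stereocilia are rooted, were divided. Of 42 measured members 20 were at least 3-fold higher in HCs and 2 lower, and of 30 with at least 200, 15 and 2. Myosins and bundle proteins led it. Among the unconventional myosins, *Myo3a* had 4546 in HCs and 68 in ENSCs, *Myo3b* 2232 and 71.8, and *Myo15* 689 and 26.8. *Myo7a* had 1329.8 and 27.5. *Myo6*, the minus-end motor, had 29920.2 in HCs and also a signal well above the tied range in ENSCs, 1604. *Espnl*, a relative of the actin bundler espin, was 44.9-fold higher, *Grxcr1* at least 35.2-fold and *Xirp2* 27.3-fold. *Kncn* (kinocilin) and *Elmod1* were 47.4-fold and 38.6-fold higher.

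Other members, known from many epithelial cells, were near equal or lower. *Pls1* (plastin 1) had 5457 in HCs and 4737 in ENSCs, and the linker *Ezr* 1754 and 1783. *Clic5* and *Rdx*, which anchor the membrane to actin, were at 1203 and 2643 in HCs and 1847 and 3121 in ENSCs. The 2 lower members were *Gas2*, a crosslinker of actin and microtubules, with 1005 and 3742, and *Pls3*, another plastin, with 76.5 and 782. Of these plastins, *Pls3* was 10.2-fold lower and *Pls1* less than 3-fold apart.

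**Figure D3:**
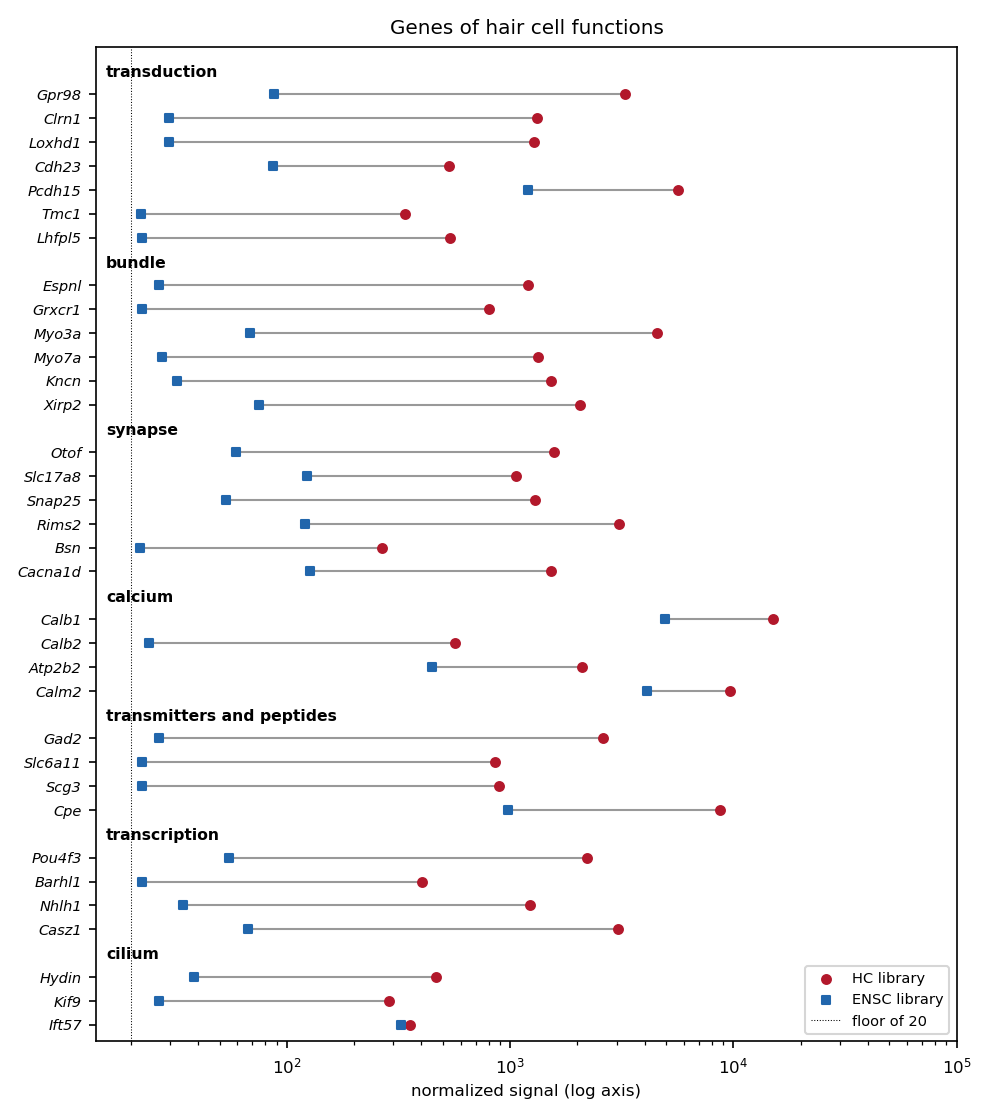
Normalized signal (log axis) of selected HC genes in the HC library (circles) and the ENSC library (squares), 1 library each, with a dotted line at the floor of 20. ENSC signals of *Tmc1*, *Lhfpl5*, *Grxcr1*, *Slc6a11*, *Scg3* and *Barhl1* lie at the tied range, while those of *Pcdh15*, *Calb1* and *Calm2* are well above it.

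Genes of the ribbon synapse and of exocytosis were a broad group on the HC side. Of 48 in the table, 27 were at least 3-fold higher in HCs and 1, *Sv2b*, lower. Of 33 with at least 200, the counts were 22 and 1. *Otof*, the calcium sensor of HC vesicle release, had 1566 in HCs and 59.2 in ENSCs. *Slc17a8*, the glutamate transporter that loads the vesicles, had 1058 and 123. *Rims2*, a scaffold of the active zone, had 3080 and 120. *Bsn* (bassoon), which tethers the ribbon, had 267 and 22, and *Rimbp2*, 269.5 and 22. *Bsn* and *Rimbp2* were in the tied range in ENSCs, whereas *Rims2* was well above it.

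Neuronal SNARE and synaptotagmin genes were included. *Snap25*, a plasma membrane SNARE, was 24.2-fold higher. *Syt7*, *Syt13* and *Syt2*, members of the synaptotagmin family of vesicle proteins, were 19.8-fold, 19.5-fold and 18.4-fold higher. *Syp*, a vesicle membrane protein, was at least 14.1-fold higher with 322 in HCs. The retrieval genes *Dnm1* and *Dnm3* were at least 10.6-fold and 10.3-fold higher. Besides *Sv2b* (136 in HCs and 504 in ENSCs, 3.7-fold lower), members on the ENSC side included *Unc13b* (282 in HCs and 671 in ENSCs), *Rab27b* (440 and 1253) and *Cadps2* (822 and 1563), these 3 less than 3-fold apart.

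Few channel genes reached 200. Of 35 potassium channel genes in the table, 6 did so, 3 of them at least 3-fold higher in HCs and 0 lower. Over all 35 the counts were 10 and 2. *Kcnmb2*, a beta subunit of large-conductance potassium channels, had 1895 in HCs and 24.8 in ENSCs. *Kcnh7*, of the ether-a-go-go related family, had 5478 and 133. *Kcnk1*, a leak channel, was on the ENSC side with 447 and 1109.

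Among calcium, sodium, TRP and HCN channels, 13 of 40 were at least 3-fold higher in HCs and 6 lower. *Cacna1d*, the calcium channel of the ribbon synapse, had 1522 in HCs and 127 in ENSCs. Its subunit *Cacnb2* had 1516 and 76.8. A second calcium channel, *Cacna1b*, was 4.9-fold higher. Sodium channel genes went both ways, some members being near equal or lower but *Scn3b* at 926 and 23 and *Scn11a* at 809.8 and 22.5. *Ryr2*, a calcium release channel of internal stores, had 545 in HCs and was in the tied range in ENSCs. On the other side stood *Cacna2d1* (122 in HCs and 1772 in ENSCs) and the release channel *Itpr1* (80.8 and 485).

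Calcium handling genes were higher in HCs in 12 of 37 cases and lower in 8. Among the calcium-binding proteins that buffer the HC cytoplasm, *Calb2* (calretinin) had 564 in HCs and 24 in ENSCs. *Pvalb* (parvalbumin) had 641 and 35.2. *Calb1* (calbindin) was strong in both, 15031 and 4963. The calmodulin gene *Calm2* had 9696 in HCs and 4108 in ENSCs. The plasma membrane pumps *Atp2b2*, the pump of the bundle, and *Atp2b3* were 4.69-fold and at least 14.1-fold higher, and the sodium-calcium exchangers *Slc8a1* and *Slc8a2* at least 19.4-fold and 12.4-fold. Calcium-dependent kinase genes were split, with *Camk2b* at least 22.3-fold higher in HCs and *Camk4* 4.8-fold lower. *Efhd1*, a calcium sensor of mitochondria, was 8.24-fold lower.

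The GABA and receptor list gave 14 higher and 6 lower of 33 genes. *Gad2*, which makes the transmitter GABA from glutamate, had the largest fold of all genes with at least 200, 2596 in HCs and 26.8 in ENSCs (97.0-fold). Its paralogue *Gad1* was on the other side, with 145 and 239. *Slc6a11*, a GABA transporter, had 854 and 22.5. *Gabbr1*, a subunit of the metabotropic receptor, was near equal at 606 and 615, so the genes of GABA use with at least 200 were not all on the HC side. *Gad2* lies on the plus strand at chr2:22477725-22549394 (mm9), 3952 bases past the end of *Myo3a* at chr2:22149130-22473772 on the same strand. Both neighbours were among the 10 largest folds on the HC side.

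Several subunits of acetylcholine receptors were higher in HCs too. *Chrna10*, a subunit of the receptor through which efferent fibres inhibit HCs, had 439 in HCs and 22.5 in ENSCs, and *Chrna9*, its partner, 171 and 21.2. The muscle subunits *Chrna1* (266 in HCs) and *Chrng* (267) were in the tied range in ENSCs. *P2rx3*, an ATP-gated channel known from sensory neurons, was at least 9.38-fold higher. The AMPA receptor genes were split, *Gria4* being 5.14-fold higher and *Gria3* 3.86-fold lower.

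Neuronal surface and dense-core granule genes followed. Of 52 in the table, 17 were at least 3-fold higher in HCs and 7 lower. The granins, proteins of dense-core granules, did not move as a family. *Scg3*, *Chgb*, *Scg5* and *Chga* were at least 39.3-fold, 17.8-fold, 11.2-fold and at least 9.66-fold higher in HCs. *Scg2* went the other way, with 69 in HCs and 4863 in ENSCs, 70.5-fold lower. Enzymes that mature peptides were HC-high, *Cpe* at 8727 and 981 and *Pcsk1* at 204 and 21.8. Of 26 genes for secreted signals and peptides 11 were higher and 5 lower. Those on the HC side were led by *Grp* (gastrin-releasing peptide), at least 27.4-fold higher, and included *Bdnf*, the neurotrophin that sustains sensory neurons, with 1861 and 110.2.

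Cell adhesion genes of synapses were also split. *Nrxn3*, a presynaptic receptor, had 6043 in HCs and 346 in ENSCs. *Ncam1* was 7.64-fold higher and its paralogue *Ncam2* less than 3-fold lower, at 518 and 1319. *Cntn1*, a contactin of axons that can also act on Notch, had 181 and 8676, 48.0-fold lower. The neurofilament genes *Nefl* and *Nefm*, structural genes of axons, were at 2381 and 1995 in HCs and 41 and 76.8 in ENSCs.

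Among HC transcription factors, 15 of 37 were at least 3-fold higher in HCs and 3 lower. *Atoh1*, the factor that starts HC fate and drives the reporter, had 805 and 25.5, so its fold is tied to the sort. *Pou4f3* and *Gfi1*, needed for HC survival, were 39.8-fold and at least 27.5-fold higher, and *Barhl1* at least 17.7-fold. *Nhlh1*, a basic helix-loop-helix factor of young neurons, had 1228 and 34.2. *Casz1*, a zinc finger factor, had 3042 and 67. *Insm1*, a zinc finger factor of young outer HCs and neuroendocrine cells, had 1379 and 22.8. *Myt1* and *Neurod6*, factors of neuronal differentiation, were at least 16-fold and at least 11.7-fold higher.

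A pair of factors shared across the sensory epithelium was near equal. *Eya1* had 7012 in HCs and 9427 in ENSCs, and *Isl1* 3682 and 4976. The 3 members lower by at least 3-fold were *Lmx1a*, a factor of non-sensory epithelium (37 and 1611), *Prdm16* (60.2 and 1012) and *Ikzf2* (300 and 1003). *Rest*, the repressor of neuronal genes, had 1761 and 3784. *Srrm4*, the splicing regulator known to switch *Rest* to a neural form in HCs, had 1358 and 45.5. Of 34 splicing and RNA-binding genes 5 were higher and 7 lower. *Rbm24*, which acts on splicing in muscle and HCs, was 25.9-fold higher. *Esrp1* and *Mbnl2*, regulators of epithelial and of differentiated splicing, were 4.9-fold and 6.92-fold lower.

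Genes of motile cilia were higher in HCs. Each young cochlear HC carries a kinocilium, a true cilium beside the stereocilia, that is lost as the cell matures. Of 47 measured axoneme genes 27 were at least 3-fold higher and 0 lower, and of 18 with at least 200, 17 and 0. *Ccdc39*, which with *Ccdc40* sets the spacing of the axoneme, had 3055 in HCs and 389 in ENSCs. *Ccdc40* was at least 14.7-fold higher. *Hydin* and *Spag6*, of the central pair, had 468 and 609 in HCs and 38.2 and 54.5 in ENSCs. *Wdr78*, a gene of axonemal dyneins, had 1059 and 162.

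Genes of the primary cilium and its transport were less far apart. In that list 12 of 63 were at least 3-fold higher and 1, *Ttc21b*, lower, with a median log2 ratio of 0.90 over all members against 1.97 for the axoneme. *Bbs1* and *Bbs5*, of the BBSome coat, were 7.97-fold and 4.47-fold higher. *Dync2h1*, the motor of return transport, had 2970.2 and 654. *Ift20* had 1639 and 439. *Pkhd1l1*, grouped here as a relative of the ciliary protein fibrocystin but known from the stereocilia coat, had 5688 and 66.2.

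Promoters of these cilium genes were examined for the word bound by RFX factors. The X-box was searched as GTTGCC followed after 0 to 3 bases by GGNAAC, on both strands, in RefSeq windows (GRCm38.p6) of 250 bases before to 50 after each start. It was in 181 of 32851 windows over all genes (0.551%). In the intraflagellar transport list it was in 8 of 61 windows (13.1%), which covered 54 of 63 members. The shorter word GTTGCCA, which can overlap an X-box, was in 4.38% of all windows and in 8 of 33 windows (24.2%) of the axoneme list, which covered 27 of 47 members. No window of the axoneme list held the full X-box. The transport list held the shorter word in 12 of 61 windows (19.7%). In the transduction, stereocilia and synapse lists 0 of 120 windows held the X-box and 1 the shorter word, whereas the E-box CAGCTG was in 31 of them (25.8%), against 16.3% of all windows. Among genes at least 3-fold higher in HCs 4 of 586 windows (0.683%) held an X-box, and among genes at least 3-fold lower 1 of 629 (0.159%). The E-box was in 117 of these 586 windows (19.97%) and in 110 of these 629 (17.5%). Some windows belong to the same gene, and a match is a description of letters only.

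The stretches below are shown because they carry these words upstream of the start in members with at least 200. Capitals mark the X-box in *Lztfl1*, *Ift57* and *Btbd17* and the word GTTGCCA, or TGGCAAC on the other strand, in the rest. The stretches are chr9:123717755-123717809 (minus strand), chr16:49699214-49699266 (plus), chr11:114795997-114796050 (minus), chr8:110266943-110266976 (plus), chr9:110476947-110476993 (plus) and chr16:33056187-33056225 (minus) of GRCm38.p6, in the order shown.
Lztfl1: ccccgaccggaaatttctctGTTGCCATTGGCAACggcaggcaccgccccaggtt
Ift57: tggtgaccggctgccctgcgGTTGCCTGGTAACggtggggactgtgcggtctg
Btbd17: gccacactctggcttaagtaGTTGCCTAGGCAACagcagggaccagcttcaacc
Hydin: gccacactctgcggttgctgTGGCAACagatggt
Kif9: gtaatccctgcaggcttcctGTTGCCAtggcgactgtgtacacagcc
Iqcg: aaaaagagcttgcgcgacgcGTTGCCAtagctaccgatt

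The cilium genes with these words had unlike ratios. *Lztfl1*, which controls BBSome traffic, had 1735 in HCs and 632 in ENSCs, and *Ift57*, of the transport train, 354 and 324. *Kif9* and *Iqcg* had 288 and 626 in HCs and 26.8 and 76.8 in ENSCs. The median log2 ratio was 1.13 for the 8 transport genes with an X-box and 0.91 for the 46 matched members without one. At least 3-fold higher in HCs were 1 of these 8 and 10 of these 46. In the axoneme list the median was 2.45 for the 7 members with the shorter word and 1.44 for the 20 without. Of these, 5 and 9 were at least 3-fold higher. *Btbd17*, chosen after its values were seen, is no cilium gene of these lists and had 266.5 and 36.2.

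The largest folds of the HC side reached beyond the lists. The 40 protein-coding genes with the largest folds ran from 97.0-fold down to 35.8-fold, and 24 of them were in a list. Of those in a list, *Slc7a14*, a transporter of the lysosome, had 2363 in HCs and 31.2 in ENSCs, and *Mreg*, an adaptor of organelle traffic first known from melanosomes, was 44.3-fold higher. The genes named next were in none. *Fer1l6*, a ferlin like otoferlin, had 2231 in HCs and 33.2 in ENSCs. *Fam40b* (*Strip2*), a subunit of striatin complexes, had 4940 and 74.5. *Apba1*, an adaptor of synaptic vesicle release, had 4483 and 84.8. *Coro2a*, an actin-binding coronin, was 47.7-fold higher. *Slc52a3*, a riboflavin transporter mutated in a disorder with hearing loss, was 44.2-fold higher, and *Galnt13*, a mucin-type glycosyltransferase, at least 55.3-fold. *Gdap1*, a mitochondrial gene of inherited neuropathy, had 1441 and 40.

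Transport of solutes and membrane traffic gave no common direction. Solute carriers and related transporters were higher in 8 and lower in 10 of 59 genes. *Slc26a5*, encoding prestin, the motor protein of outer HCs, had 455 in HCs and 22.5 in ENSCs. *Slc12a5*, a potassium-chloride exporter of neurons, was at least 20.4-fold higher, whereas *Slc12a2*, the importer, had 4701 and 15031. The endolymph-related transporters *Slc26a4* (pendrin), *Slc26a7* and *Slc4a4* were at least 11.6-fold, at least 52.9-fold and at least 13.7-fold lower.

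In a list of P-type ATPases and lipid flippases, which also holds proton pump subunits and *Ano* and *Fxyd* genes, 5 were higher and 6 lower of 26. *Atp8a2*, a flippase of neurons and photoreceptors, was at least 20.9-fold higher, and *Atp11a* had 4863 in HCs and 887 in ENSCs. *Atp6v1b1*, a proton pump subunit of endolymphatic epithelium, was at least 13.3-fold lower. Of 46 Rab and Arf traffic genes 7 were higher and 3 lower. *Rab11fip1*, *Rab6b* and *Rab3ip*, which act in recycling and secretion, were 5.75-fold, 5.6-fold and 4.85-fold higher, and *Arl4c* 9.69-fold lower. Microtubule genes were higher in 10 and lower in 8 of 45. *Kif21b*, a neuronal kinesin, was at least 20.7-fold higher, while *Dcx* and *Dclk1*, the doublecortins of migrating neurons, were 10.4-fold and 16.5-fold lower in HCs.

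On the other side, many genes of the greater epithelial ridge, the interdental cells and the roof were higher in ENSCs. Of 55 measured ridge, interdental and roof markers 36 were at least 3-fold lower in HCs and 2, *Calb1* and *Fgf20*, at least 3-fold higher. Their median log2 ratio was -2.35. Of 51 supporting cell markers 11 were lower and 5 higher, with a median of -0.43. The lists share *Epyc*, *Tectb* and *Otoa*. *Epyc*, encoding epiphycan, had 764 in HCs and 62029 in ENSCs. *Sox9*, a factor of supporting and ridge cells, had 937 and 6453. *Lrp2*, the endocytic receptor of absorptive epithelium, had 102 and 2918, and *Gata2* 98.2 and 1429. *Otx2*, a patterning factor, and *Crabp1*, which binds retinoic acid, were at least 16.3-fold and at least 19.9-fold lower.

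Some of the supporting cell markers were near equal or higher in HCs, against the median of their list. *Sox2*, a factor of prosensory and supporting cells, had 2659.5 in HCs and 2104 in ENSCs. *Gjb2*, a connexin, had 4084 and 4726, and *Jag1*, the Notch ligand of supporting cells, 7815 and 5298. The supporting cell genes *Fabp7*, *Ednrb* and *Etv1* were 2.57-fold, 3.59-fold and 4.92-fold higher in HCs. *Fabp7* is a glial gene elsewhere, and *Mal*, *Pmp22* and *Erbb3* of the glia list were at least 25.5-fold, at least 23.2-fold and 5.7-fold lower. The part of supporting cells sorted with the HCs was not tested.

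Matrix genes were among the largest folds on the ENSC side. Tectorial membrane and gel matrix genes were past 3-fold on the ENSC side in 12 of 19 cases and on the HC side in 1. *Tectb*, a tectorin, had 1196 in HCs and 7995 in ENSCs. *Otoa* (otoancorin), which attaches the tectorial membrane to the interdental cells, had 61.5 and 1081. *Oc90*, an otoconial protein gene, had 463 and 5342. *Tecta* and *Otog*, also made by supporting cells, were closer, at 4249 and 11861 and at 899.5 and 1433.

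Of 28 collagens, 16 were past 3-fold on the ENSC side and 0 on the HC side. The fibril collagens of the tectorial membrane were included. *Col11a1* had 1459.5 in HCs and 20413 in ENSCs, *Col9a1* 1069.8 and 8876, and *Col9a3* 314 and 2793. *Col4a5*, of basement membranes, had 172 and 2470. *Col1a2*, a collagen of connective tissue, had 46.2 and 1618, while its partner *Col1a1* was at 23.8 and 58.2 and *Col3a1* at 23.8 and 46.2.

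Proteoglycans had 14 of 32 lower and 4 higher. *Lum* (lumican) had 728 in HCs and 12731 in ENSCs, and *Ogn* (osteoglycin) 42.2 and 3232. *Gpc3*, a glypican, was 43.1-fold lower and *Spock3* 34.5-fold. One of the 4 higher genes was *Vcan* (versican), a large proteoglycan, with 1747 in HCs and 147 in ENSCs, and *Spock2* was another, 6.74-fold higher. Among 56 laminin, integrin and basement membrane genes 23 were lower and 1 higher. *Itga8*, an integrin needed for the hair bundle, was strong in both, 4428 and 23927. *Fn1*, *Lamb1* and *Postn* were 16.4-fold, 23.5-fold and at least 39.7-fold lower. *Fras1* and *Frem1*, of a complex joining epithelium to stroma, were 22.8-fold and 15.4-fold lower. The higher gene was *Tnc* (tenascin C), with 11148 in HCs and 661 in ENSCs, 16.9-fold.

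Enzymes that shape the matrix were lower in 20 and higher in 2 of 60. *Mmp2* and *Adamts9*, which cut matrix proteins, were 14.2-fold and 13.7-fold lower. *Lox*, which crosslinks collagen, had 3178 in HCs and 533 in ENSCs, and *Mmp24*, a membrane protease, had 228 and 21.8. The cadherins and protocadherins were lower in 13 and higher in 2 of 31. *Cdh1* (E-cadherin) was near equal, 6003 and 4853, and *Cdh2* (N-cadherin) 3.02-fold higher. Among protocadherins, *Pcdh8* was at least 32.0-fold higher and *Pcdh17*, *Pcdh19* and *Pcdh10* were 17.5-fold, 12.5-fold and 9.19-fold lower. *Dsp*, the desmosome linker, had 34.8 and 684.

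**Figure D4:**
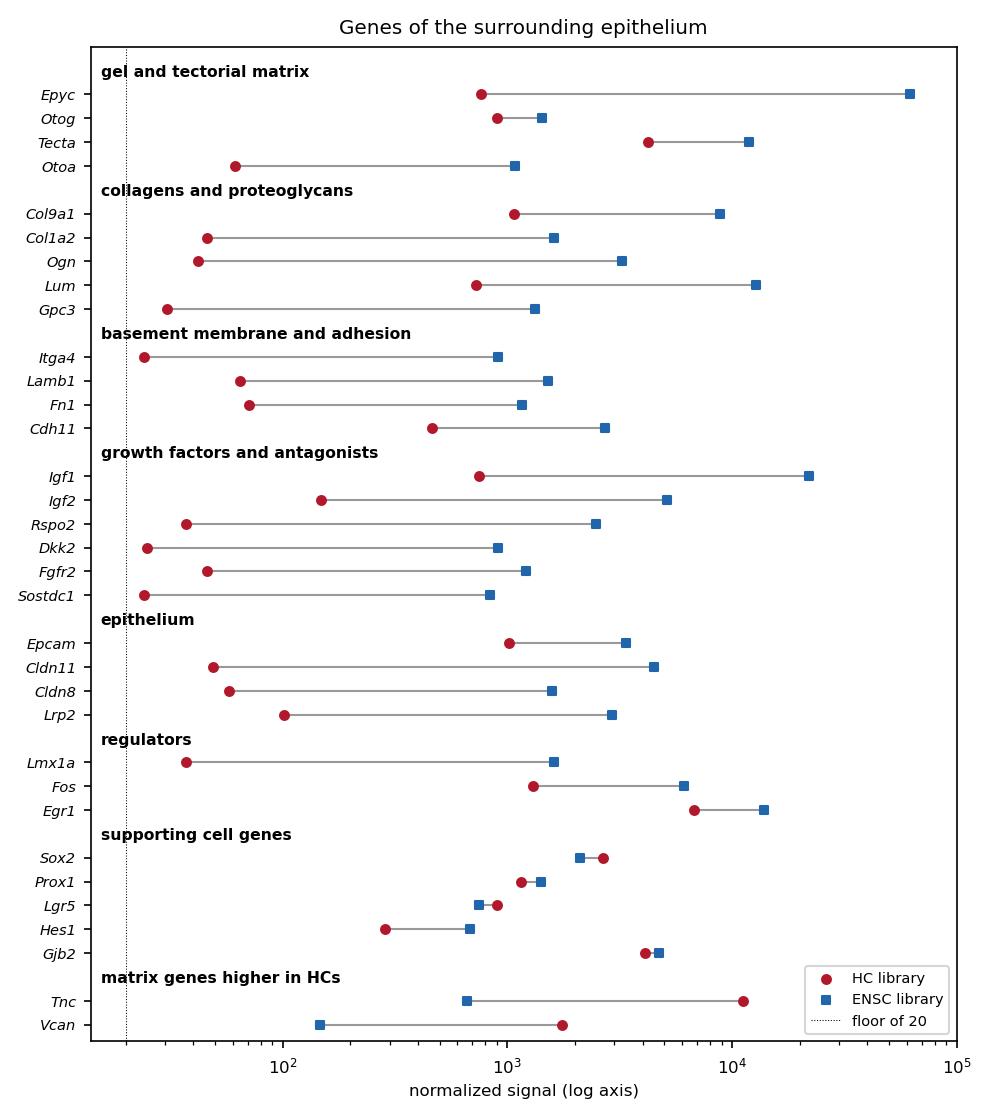
Normalized signal (log axis) of selected genes of the surrounding epithelium in the HC library (circles) and the ENSC library (squares), 1 library each, with a dotted line at the floor of 20. Most matrix and growth factor genes are far higher in ENSCs, but *Tecta* and *Otog* are less than 3-fold apart. *Sox2*, *Prox1*, *Lgr5* and *Gjb2* lie close together, and *Tnc* and *Vcan* are higher in HCs.

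Junction genes went both ways, with more of them past 3-fold on the ENSC side. Of 39 tight junction and apical genes 9 were lower in HCs and 4 higher. *Cldn11*, a claudin known from basal cells of the stria and from myelin, had 49.2 in HCs and 4500.2 in ENSCs, the largest fold of the ENSC side at 91.4-fold. It lies at chr3:31048868-31063246 (mm9) on the plus strand. *Cldn8*, *Cldn4* and *Cldn7* were 27.3-fold, 5.32-fold and 6.09-fold lower, while *Tjp1* was near equal at 2258 and 2433. Among the 7 connexins in the table *Gja1* was 5.76-fold lower and *Gjc1* 7.47-fold, whereas *Gjb6* had 871 and 624. Of 19 keratin and intermediate filament genes 3 were higher and 4 lower. *Vim* had 425 and 5063, and *Krt18*, a simple epithelial keratin, 147 and 581.

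Notch genes went both ways. Over the list 8 of 37 were at least 3-fold higher in HCs and 5 lower. The ligand genes *Dll1*, *Jag2* and *Dll3* had 375, 309 and 291 in HCs and were in the tied range in ENSCs. *Dner*, an atypical ligand, was 6.56-fold higher, and *Mfng*, a sugar transferase that tunes receptors, at least 9.74-fold. The receptors were ENSC-high. *Notch2* had 130 and 1493, *Notch1* 108 and 352, and *Notch3* 65.8 and 336. Of the effectors, *Hes1* had 285 and 685 and *Hey2* 643 and 508, both less than 3-fold apart.

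In the growth factor pathways more genes were past 3-fold on the ENSC side than on the HC side, though most were between. The IGF pathway had 7 of 15 genes lower and 0 higher. *Igf1*, a growth factor of the young cochlea, had 748 in HCs and 21968 in ENSCs. *Igf2* had 149 and 5119, and the noncoding *H19*, its imprinted neighbour, 116 and 6677. *Grb10*, another imprinted gene and an inhibitor of the receptor, had 693 and 5554. *Pappa2*, a protease that frees IGF from its binding proteins, was 38.6-fold lower. The receptor *Igf1r* was near equal, 275 and 323.

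Among Wnt genes 17 of 57 were lower in HCs and 0 higher. The secreted enhancers *Rspo2* and *Rspo3* had 2481 and 548 in ENSCs and 37 and 24.2 in HCs. The antagonists *Dkk2* and *Frzb* were also lower, 36.6-fold and 14.5-fold. *Wnt5a*, a ligand of cell polarity in the cochlea, had 541 and 5205. Receptors on the HC side were less than 3-fold apart, among them *Fzd4* at 715 and 385 and *Fzd3* at 1617 and 1259.5.

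The BMP and TGF-beta pathway had 16 of 50 genes lower and 3 higher. BMP antagonists had the largest folds of the members with at least 200. *Fst* (follistatin) had 53.8 in HCs and 1191 in ENSCs, and *Sostdc1*, *Bmper* and *Nog* were at least 34.6-fold, at least 15.7-fold and at least 14.8-fold lower. *Id3* and *Id1*, targets of BMP signalling, were 4.4-fold and 3.75-fold lower. *Inhba*, the activin subunit that follistatin binds, was HC-high at 419 and 113, opposite to *Fst*. In the FGF pathway 9 of 32 were lower and 3 higher. *Fgfr2* had 46.2 and 1214, and *Fgfr1* 205 and 652. *Fgfr3*, the receptor of pillar cells, was at 154 and 137.

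Retinoic acid genes were lower in 4 and higher in 2 of 22. *Aldh1a1*, which makes retinoic acid, had 144 in HCs and 551 in ENSCs, and *Rdh12*, a retinal reductase, 258 and 22. Axon guidance genes were lower in 18 and higher in 6 of 60. *Slit2* and *Slit3*, ligands of the Robo receptors, were 12.2-fold and at least 32.8-fold lower, whereas the receptor *Robo2* had 6189 and 1592. *Epha7*, an Eph receptor, had 1646 and 11670.2, whereas the ephrin *Efna5* was 8.61-fold higher in HCs. *Sema3e* and *Sema5b* were 4.97-fold and 20.8-fold higher, and *Sema3c* 12.5-fold lower.

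Otic patterning transcription factors had 17 of 62 genes lower in HCs and 1 higher. Apart from the genes named above, *Sox5*, a factor of cartilage and neural crest, had 251 and 2447. *Sall1* and *Emx2*, a factor that sets HC orientation, were less than 3-fold higher, at 902 and 354 and at 1630.2 and 816.

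Immediate-early and stress genes were lower in 16 of 46 and higher in 1. *Fos* had 1296 in HCs and 6105 in ENSCs, and *Nr4a2* 272 and 1691. *Zfp36*, which destabilises cytokine messages, had 465 and 3039.8, and *Sgk1*, a kinase of salt and stress responses, 137 and 1353. *Egr1* was less far apart, at 6746 and 13899. The exception was *Hsp90aa1*, a heat-inducible chaperone, with 3155 and 883. These genes respond to handling of tissue as well as to signals, and the part of dissociation and sorting was not tested.

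Immune genes were lower in 11 and higher in 1 of 36. *B2m*, the light chain of class I molecules, had 36 in HCs and 622 in ENSCs, and *Lifr*, a cytokine receptor, 325 and 1482. *Cxcl14*, a chemokine, was at least 10.7-fold higher in HCs.

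Few cell cycle genes stood apart. Of 46 DNA replication and mitosis genes only 8 reached 200, and over all of them 1 was higher and 5 lower. *Pola1*, a polymerase subunit, had 98.2 and 522. Of 31 regulators of cycle entry and exit 2 were higher and 4 lower. *Cdkn1b*, the inhibitor that holds HCs and supporting cells out of the cycle, was near equal in this pair, at 1717 and 2307. *Cdkn1c* and *Ccnd2*, an imprinted inhibitor and a cyclin, were 3.38-fold and 8.6-fold lower. *Gas6*, a ligand of receptor kinases, had 619 and 59.

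Most housekeeping groups lay near equality. Of 37 proteasome and ubiquitin genes 0 were higher and 0 lower, with a median log2 ratio of -0.08. Of 74 oxidative phosphorylation genes 1, *Ndufs1*, was higher and 0 lower, with a median of 0.02. Cholesterol synthesis genes had 2 and 2 of 22, and glycolysis genes 2 and 5 of 24. Within glycolysis *Pfkp*, a phosphofructokinase, had 272 in HCs and 36.2 in ENSCs, and *Aldoc* 129 and 442. Ribosomal protein genes had 2 higher and 5 lower of 70, with a median of -0.27. For the 25 of them with at least 200 the counts were 1 and 5 and the median was -0.96. Many such genes have near-identical pseudogenes that share their reads.

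To set levels of different genes side by side, the signal was divided by exonic length. In HCs the protein-coding genes encoded in the nucleus with high levels included *Skp1a* at 10133 per kilobase and *Calm2* at 6609. The highest in ENSCs were *Epyc* at 24220.4, *Cd24a* at 14917 and *D0H4S114* at 7762. *Cd24a* encodes a surface glycoprotein of young epithelium and had 3240.1 per kilobase in HCs. Below these levels were *Cpe* at 4181 in HCs and, in ENSCs, *Lum* at 6136 and *Sparc* at 4769.9. The mitochondrial genes *mt-Nd5* and *mt-Nd1* exceeded the nuclear genes named here in both libraries, at 39929 and 31898 in HCs and 30499 and 31265 in ENSCs.

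Among genes that are not protein-coding, 4 were looked at after their values were seen. *Miat*, a long noncoding RNA of neurons, had a signal of 4753 in HCs and 93.5 in ENSCs. The maternally expressed noncoding genes *Meg3* and *Rian* of 1 imprinted cluster had 64.8 and 73.2 in HCs and 456 and 574 in ENSCs. *Neat1* had 78.5 and 380.5. Of 24 genes of the lincRNA class with at least 200, 3 were at least 3-fold higher and 5 lower, and of 16 antisense genes 7 and 1. The strand setting of the counting is not stated, so reads of an antisense gene and its partner cannot be told apart.

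The vestibular pair, HCs and ENSCs from the organ of balance sorted in the same way with 1 library each, shows where the cochlear ratios differ. Of the 648 genes higher in cochlear HCs, 457 were also at least 3-fold higher in vestibular HCs, 182 were between and 9 at least 3-fold lower. Of the 699 lower genes, 404 were lower, 274 between and 21 higher. With the same minimum of 200 in each pair, the shared higher genes made up 61.0% of the cochlear and 35.6% of the vestibular list, and the shared lower genes 53.2% and 31.0%. In the vestibular pair 17.6% of 6309 genes were higher and 19% lower.

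Lists of the HC side had unlike medians in the organs. For members with at least 200 in the cochlea, the axoneme median was 2.999 for cochlear and 4.96 for vestibular cells, and the transport median 0.97 and 1.98. Stereocilia genes had 1.49 and 3.48. The transduction and synapse genes were closer, at 4.33 and 3.77 and at 3.11 and 3.35. The secreted signals had 2.73 and 0.97. On the ENSC side the cadherins had -1.92 and -0.33, and the collagens -3.01 and -4.08. The minimum of 200 here was set on the cochlear signals alone. Over all members in the table the cadherins had -0.89 and -0.87 and the stereocilia genes 1.33 and 1.70. The secreted signals then had 0.60 and -0.08. The axoneme had 1.97 and 3.48, the transport list 0.90 and 1.64, and the collagens -2.01 and -2.93. None of these differences between organs was tested.

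**Figure D5:**
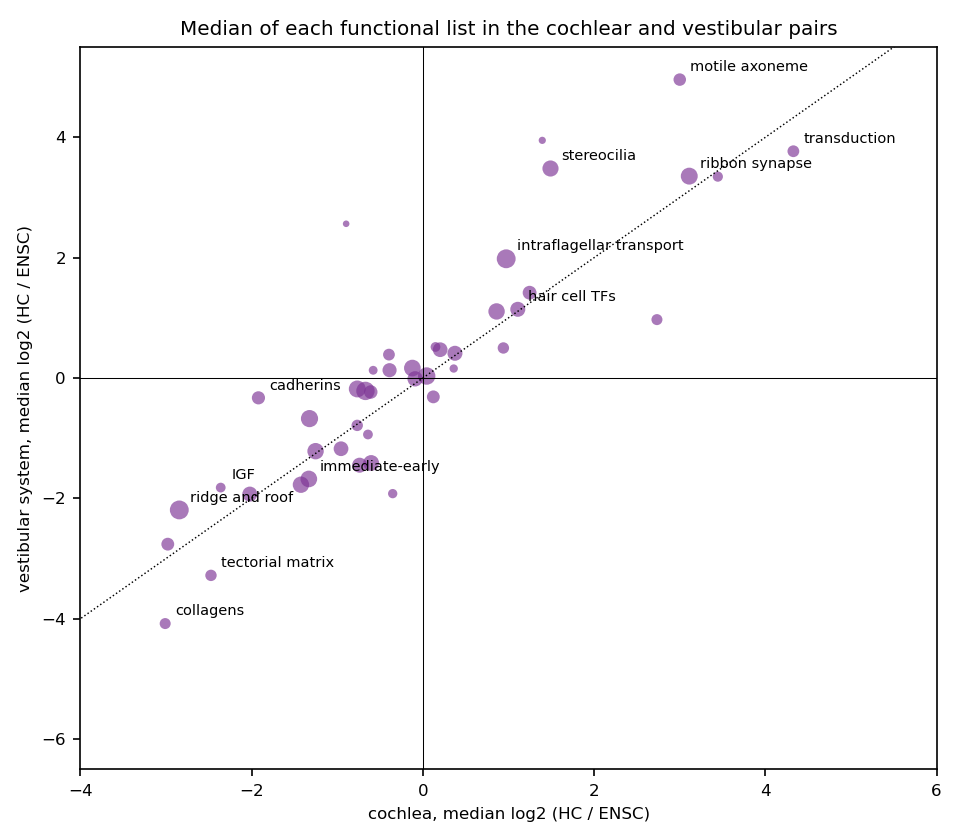
Median log2 ratio of HC to ENSC signal for 44 functional lists in the cochlear pair (horizontal) and the vestibular pair (vertical), over members with at least 200 in the higher cochlear library and only for lists with at least 5 of them. Point area follows the number of members, and the dotted line marks equality. The motile axoneme lies above the line at 2.999 and 4.96, and the cadherins lie near 0 only in the vestibular pair. Over all cadherins in the table, without the minimum, the medians were -0.89 and -0.87.

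Among single genes, 39 of the 40 leading HC genes were at least 3-fold higher in vestibular HCs too, and 1 was not. That gene was *Insm1*, whose cochlear log2 ratio was at least 5.92 and whose signals in the vestibular pair, 29.8 in HCs and 20 in ENSCs, were in the tied range and at the floor. *Pkhd1l1* was past 3-fold there, at a log2 ratio of at least 1.64 against 6.42 in the cochlea, its vestibular ENSC signal being at the floor. On the ENSC side 29 of the 40 were at least 3-fold lower in both organs. Of the other 11, 9 were less than 3-fold apart in the vestibular pair and 2 reversed. The cartilage matrix gene *Matn1* had -6.07 and, with a vestibular HC signal in the tied range, -0.65, the growth factor gene *Kitl* -5.63 and -0.15, and *Dkk2* -5.19 and 0.18. *Lrp2* and *Lect1*, a matrix gene of cartilage, were by contrast further apart in the vestibular pair, at -6.31 and -7.06.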

How the data were processed

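RNA of sorted cochlear HCs and ENSCs was sequenced, 1 library each. The vestibular pair of the same table served for comparison only. Per the labels and the study's methods, the authors amplified RNA with the NuGEN Ovation system, used TopHat to map 50 nt from the start of each read to mm9, obtained gene counts for ENSEMBL genes from HTSeq, applied quantile normalization over the 4 columns and set a floor of 20. The deposited values are therefore a signal and no longer counts. Versions, annotation release and strand setting are not given in the sources used here. Triplicates are mentioned in the design text, whereas the table used here holds 1 column for each population. The labels name an RNeasy kit for extraction and the methods TRIzol. The non-HC column of each organ was read as its ENSC sample.

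Every value was a multiple of 0.25 and each column summed to 7830343, so depth is unknown and a shift of all genes between cell types cannot be seen. Symbols that a spreadsheet had turned into numbers (19 genes) were repaired from the gene identifiers. The log2 ratio was taken on the deposited values with no pseudocount, and ratios of at least 3 either way were counted among genes with at least 200 in the higher library. The top of a tied range was the last low signal before the median of the genes' highest signal in the other libraries fell to under 0.5 of its value. Positions and exonic length came from GENCODE for NCBIM37 (mm9), and GC content from its longest protein-coding transcripts. Ratios, counts and medians were computed with numpy 2.4.6 and pandas 2.3.3 and tested on simulated data. The trend correction used local regression in statsmodels 0.14.6 over 0.3 of the genes. No test was made, since no group had more than 1 library.

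The members, the 45 functional and 9 marker lists and the thresholds were chosen with earlier results of these data known. Genes were named by rule: up to 8 members per direction and list with the largest ratio, the 40 protein-coding genes per direction with the largest ratio, the 20 per library with the highest signal per kilobase, and all marker genes. Named beside the rule, after their values were seen, were *Tmc2*, *Tmie*, *Ush1c*, *Vezt*, *Myo15*, *Pls1*, *Ezr*, *Bsn*, *Rimbp2*, *Syp*, *Dnm1*, *Dnm3*, *Myt1*, *Neurod6*, *Ccdc39*, *Wdr78*, *Lztfl1*, *Ift57*, *Iqcg*, *Tecta*, *Otog*, *Itga8*, *Tjp1*, *Igf1r*, *Cdkn1b*, *Fgf20*, *Uvrag*, *Bag3* and *Btbd17*. Values of some genes that the rule names are not reported here. The alternatives were other floors, pseudocounts, thresholds and minimum signals, protein-coding genes only, centring, raising of tied values and correction for exonic length and GC content.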

Additional observations from a re-analysis of the deposited data

Results flagged for a closer look

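The 8 named genes below had at least 200 in the higher library of both organs and were at least 3-fold apart in opposite directions in the cochlear and vestibular pairs. With 1 library per population the difference between organs was not tested. The log2 ratios here are of the deposited signals, without raising of tied values. Higher in cochlear HCs and lower in vestibular HCs were *Slc14a1*, a urea transporter gene, with log2 ratios of 4.93 and -4.81, and *Vcan* with 3.57 and -3.49. In the vestibular pair the signals of *Slc14a1* were 31.5 and 885, against 684 in cochlear HCs and 22.5 in cochlear ENSCs. Since the last of these signals lay in the tied range, the cochlear fold is a lower bound, at least 30.1-fold. The other 6 were lower in cochlear HCs and higher in vestibular HCs. *Thsd7a*, a membrane protein of cell migration, had -5.56 and 2.31, and the integrin *Itga4* -5.22 and 1.89. The bicarbonate transporter *Slc4a4* had -3.78 and 1.60. For *Thsd7a*, *Itga4* and *Slc4a4* the cochlear HC signal was in the tied range. The kinase *Camk4* had -2.26 and 2.80, the protocadherin *Pcdh20* -2.33 and 2.29, and the vesicle protein *Sv2b* -1.89 and 2.78.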

How the results depend on the processing

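The count of genes at least 3-fold higher in cochlear HCs was 648 and of those lower 699. A floor of 50, a floor of 100, a pseudocount of 20, centring, raised tied values, the correction for exonic length and GC content, a minimum of 100 and protein-coding genes only each kept both counts within 1.5 times, at 522 to 900 higher and 565 to 969 lower. A pseudocount of 100 gave 394 higher and 406 lower, a threshold of 2 gave 1117 and 1163, and a threshold of 5 gave 412 and 383. A minimum of 500 in the higher library gave 381 and 420, and no minimum 1075 and 1179. Higher genes made up a share of the calls that stayed between 47.6% and 51.8% under all of these. Genes with more than the floor in both libraries had a median of 0.01, so centring moved no list median by more than that. Of the genes named by rule, 388 were past 3-fold, and raising the floor to 100 moved 52 of these under it and a pseudocount of 100 moved 91. List medians changed sign in 7 of 51 lists at a minimum of 500, in 3 with the length and GC correction, in 3 with no minimum and in 1 at a minimum of 100, but no median or named gene past 3-fold did. At a minimum of 500, 5 lists crossed 3-fold. Without a minimum signal the medians of 8 of 51 lists crossed 3-fold, the spiral ganglion list moving most, from 4.55 to 0. No paired analysis was possible because each group had 1 library, and for the same reason no replicate could be left out. Depth and replicate error are unknown, and folds of genes with a low smaller signal depend on the floor.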
